A study of Mus musculus with 15 samples.

Results

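The genes described are 10 transcription factors that set the identity of lung epithelium, Nkx2-1, Foxa1, Foxa2, Cebpa, Gata6, Foxp1, Foxp2, Foxp4, Tfcp2l1 and Trp63. They were taken by name from the 54838 mouse genes measured by RNA sequencing. There were 15 libraries, 3 in each of 5 groups. Cells of 4T1, a mammary carcinoma line of BALB/c origin, were taken out of BALB/c lungs 7 days after tail vein injection (in vivo) or grown in a dish (in vitro). Lung epithelial cells, titled by the surface protein EpCAM, were sorted 7 days after injection of 800000 4T1 cells that label their neighbours. They came from the metastatic niche of a group labelled shSox9 (shSox9 niche), from the metastatic niche of control mice (niche) and from distal lung (distal). All epithelial mice therefore carried 4T1 cells, and each epithelial replicate pooled 5 lungs. The labels do not say which cells carried the shSox9 hairpin.

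Nkx2-1 is a homeodomain protein that specifies the lung from foregut endoderm and is needed afterwards to hold alveolar type 1 (AT1) and type 2 (AT2) cells in their state. It acts on surfactant genes together with the forkhead proteins Foxa1 and Foxa2, the zinc finger protein Gata6 and the leucine zipper protein Cebpa. Foxp1, Foxp2 and Foxp4 are forkhead repressors that balance airway and alveolar fates. Tfcp2l1 belongs to the CP2 and grainyhead family and is known from mouse embryonic stem cells and the kidney collecting duct. Trp63 (p63) marks the basal cells of the airway.

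Levels are given as CPM, counts scaled to library size over all 15 libraries, and as TPM, which also corrects for transcript length, where genes are compared with each other. Libraries held 15907254 to 30421678 counts. The label shSox9 was not matched by lower Sox9 RNA in these bulk libraries. Sox9 averaged 61.5 ± 23.2 CPM in shSox9 niche and 52.5 ± 16.6 CPM in niche libraries (SD, n = 3 each), a log2 difference of 0.26 (SE 0.27, edgeR adjusted p = 0.548). It averaged 5.61 ± 0.57 CPM in distal epithelium, 316.2 ± 53.5 CPM in 4T1 cells in vivo and 209.6 ± 18.2 CPM in vitro. The part of 4T1 RNA in the Sox9 level of the niche groups was not tested, so Sox9 in their epithelial cells alone is not known. The epithelial label was met in part. Epcam had 24.5 to 33.3 CPM in shSox9 niche, 30.2 to 75.2 CPM in niche and 81.0 to 98.7 CPM in distal libraries, and Sftpc, the surfactant protein of AT2 cells, averaged 40490, 9569 and 203100 CPM in the same groups. Fibroblast and mural markers were present in every epithelial library, and the 8 of them summed to 3579 to 5400 TPM in shSox9 niche, 4013 to 4578 TPM in niche and 854 to 1088 TPM in distal libraries. In bulk RNA, fewer cells of a type and less of a transcript per cell cannot be told apart.

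The promoters of 3 factors tied to the lung programme are shown, which moved together in the comparisons that follow. Other factors moved as closely. Over the 9 epithelial libraries, Pearson r of log2(CPM + 1) was 0.984 for Nkx2-1 with Foxa1 and 0.984 for Nkx2-1 with Tfcp2l1. The windows are the 250 bases before a RefSeq start (GRCm38.p6), read on the strand of the gene, and capitals mark matches to a binding motif. The first is Nkx2-1 (chr12:56536909-56537158, minus strand), the second a Foxa2 start inside the locus (chr2:148045465-148045714, minus strand), and the third Foxa1 (chr12:57546112-57546361, minus strand), whose window includes 10 exonic bases of Foxa1. Foxa2 has further RefSeq starts, among them one at the outer end of the gene, and their windows held no match.
Nkx2-1: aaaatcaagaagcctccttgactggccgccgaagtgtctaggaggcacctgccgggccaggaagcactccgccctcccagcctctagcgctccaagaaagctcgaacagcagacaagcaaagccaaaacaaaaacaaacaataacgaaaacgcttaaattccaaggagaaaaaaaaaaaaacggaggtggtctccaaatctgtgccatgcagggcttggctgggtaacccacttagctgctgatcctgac
Foxa2: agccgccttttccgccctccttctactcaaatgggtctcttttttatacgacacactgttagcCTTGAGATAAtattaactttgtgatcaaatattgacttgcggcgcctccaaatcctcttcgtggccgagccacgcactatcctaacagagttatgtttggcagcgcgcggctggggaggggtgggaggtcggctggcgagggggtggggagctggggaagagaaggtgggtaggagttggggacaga
Foxa1: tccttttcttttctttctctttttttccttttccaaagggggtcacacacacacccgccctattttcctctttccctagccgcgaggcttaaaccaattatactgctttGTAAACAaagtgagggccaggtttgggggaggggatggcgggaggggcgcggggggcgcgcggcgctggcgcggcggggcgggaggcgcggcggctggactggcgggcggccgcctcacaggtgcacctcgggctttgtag
The motifs searched on both strands were TNTTTAC for forkhead proteins, CTCAAG for NKX2-1, TTGCNNAA for C/EBP and AGATAA for GATA proteins. The Foxa2 window shown held the NKX2-1 motif 182 bases and the GATA motif 178 bases upstream of its start, and the matches overlap. The Foxa1 window held the forkhead motif 135 bases upstream, and the Nkx2-1 window held none of the 4. Of 32851 promoter windows in the RefSeq table, 10.9% held the forkhead, 13.3% the NKX2-1, 9.56% the C/EBP and 9.99% the GATA motif, so that single matches are common. RefSeq windows were at hand for 7 of the 10 factors, 11 windows in all, and the only other match was a C/EBP motif at a Foxp1 start. A match describes the letters of a window and does not show binding.

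Niche epithelium was compared with distal epithelium, which asks how the lineage factors stand beside a growing metastasis. Of the 10 factors, 9 were lower in niche epithelium by edgeR's quasi-likelihood test, at an adjusted p below 0.05, and none was higher. Over all 17640 genes tested, 54.3% were called, 25.8% lower and 28.5% higher. The median log2 fold change was -2.74 over the 10 factors and 0.02 over all genes tested. The factors ranged from Tfcp2l1, at 3.11% of its mean distal CPM, to Foxp4, which lay close to its distal level.

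Nkx2-1 (ENSMUSG00000001496, GRCm38 chromosome 12, 56531958 to 56536908) had 8.13, 10.6 and 5.95 CPM in niche and 152.7, 149.6 and 147.0 CPM in distal libraries. Every niche library was far below every distal one, and the fall was -4.32 in log2 units (SE 0.23, edgeR adjusted p = 1.28e-07). In TPM, Nkx2-1 was the most abundant of the 10 factors in distal epithelium, at 76.3 ± 3.88 TPM, and in niche epithelium it stood below Foxp1, Cebpa and Foxp4, at 5.66 ± 1.63 TPM.

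The forkhead pioneer factors followed the same pattern. Foxa2 (ENSMUSG00000037025, chromosome 2, 148042877 to 148046969) had 1.38, 1.32 and 0.95 CPM in niche and 23.2, 19.5 and 25.6 CPM in distal libraries, a log2 fold change of -4.35 (SE 0.23, edgeR adjusted p = 1.28e-07). Foxa1 (ENSMUSG00000035451, chromosome 12, 57540628 to 57546916) had 1.75, 2.83 and 0.82 CPM in niche and 32.3, 27.6 and 25.5 CPM in distal libraries, a log2 fold change of -4.10 (SE 0.31, edgeR adjusted p = 1.47e-06). Both genes were low in all niche libraries without overlap, and Foxa1 spread more widely over those libraries than Foxa2.

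Tfcp2l1 (ENSMUSG00000026380, chromosome 1, 118627945 to 118685168) had 3.54, 6.31 and 1.39 CPM in niche and 156.0, 112.8 and 92.1 CPM in distal libraries. This was the steepest fall of the 10, with a log2 value of -5.12 (SE 0.41, edgeR adjusted p = 2.06e-06), and only 1.78% of the genes tested had a lower fold change. Its niche levels spread more widely than those of the other factors, with the lowest value in niche replicate 3. That library was also the lowest of the niche group for Nkx2-1, Foxa1, Foxa2 and Foxp2, and the highest for Gata6, Cebpa and Trp63.

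Cebpa and Gata6, which drive surfactant genes in maturing alveolar cells, fell less. Gata6 (ENSMUSG00000005836, chromosome 18, 11052064 to 11085635) had 4.59, 5.32 and 7.22 CPM in niche and 23.3, 31.5 and 24.1 CPM in distal libraries, a log2 fold change of -2.36 (SE 0.22, edgeR adjusted p = 6.59e-06). Cebpa (ENSMUSG00000034957, chromosome 7, 35119293 to 35121928) had 20.2, 21.3 and 22.0 CPM in niche and 63.9, 50.7 and 62.9 CPM in distal libraries, a log2 fold change of -1.63 (SE 0.16, edgeR adjusted p = 7.46e-06). For both, niche and distal libraries did not overlap. Cebpa is known in monocytes and macrophages as well as in epithelium, and the 13 leukocyte markers summed to 1633 to 1789 TPM in niche and 186.5 to 313.3 TPM in distal libraries, with 9 of the 13 higher and 2 lower. The part of such cells in the level of Cebpa was not tested. Gata6 and Cebpa share exonic sequence with antisense genes, 1010001N08Rik at no more than 4.79 TPM and Gm45091 at no more than 1.73 TPM, and the strand setting of the counting is not given.

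Of the Foxp repressors, Foxp2 (ENSMUSG00000029563, chromosome 6, 14901349 to 15441977) had 3.03, 3.06 and 1.65 CPM in niche and 20.4, 20.2 and 20.6 CPM in distal libraries, a log2 fold change of -3.11 (SE 0.23, edgeR adjusted p = 1.18e-06). Foxp1 (ENSMUSG00000030067, chromosome 6, 98925338 to 99522721) had 67.4, 67.6 and 67.2 CPM in niche and 142.5, 127.9 and 128.9 CPM in distal libraries, a log2 fold change of -1.13 (SE 0.09, edgeR adjusted p = 1.80e-06). Foxp4 (ENSMUSG00000023991, chromosome 17, 47867133 to 47924645) had 24.8, 25.6 and 25.9 CPM in niche and 29.5, 33.0 and 31.1 CPM in distal libraries, and its log2 fold change of -0.44 (SE 0.12, edgeR adjusted p = 0.0088) was -0.17 (adjusted p = 0.274) when libraries were scaled by their totals and 0.13 on the log2(TPM + 1) scale. The last factor, Trp63 (ENSMUSG00000022510, chromosome 16, 25683763 to 25892102), had 2.25, 2.54 and 3.42 CPM in niche and 3.27, 5.40 and 3.71 CPM in distal libraries. The Trp63 groups overlapped, and its log2 fold change of -0.74 (SE 0.42, edgeR adjusted p = 0.16) did not pass the test and was 0.08 on the log2(TPM + 1) scale. Niche and distal ranges did not overlap for Foxp1, Foxp2 and Foxp4.

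**Figure D1:**
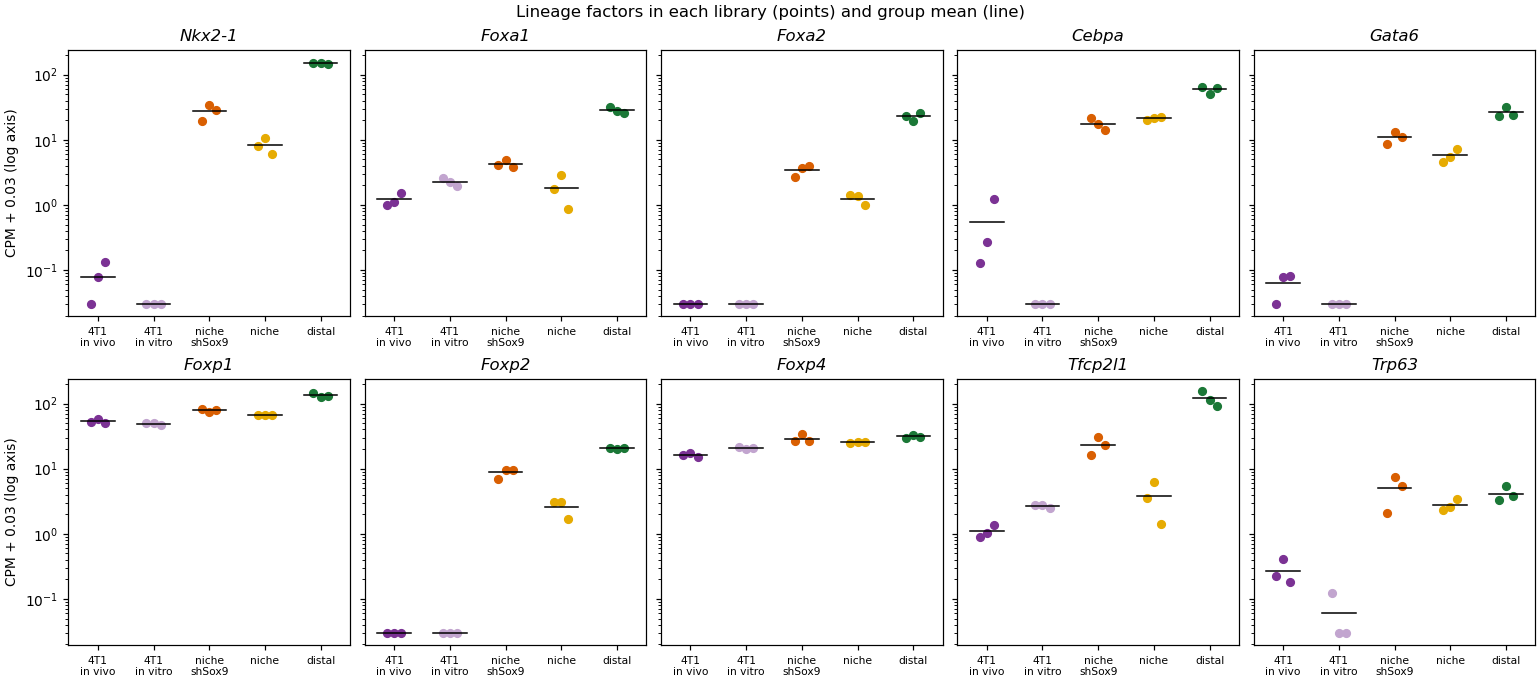
Level of each of the 10 factors in each library, as CPM on a log axis with a small offset that keeps zeros visible; points are libraries, lines are means of 3. Nkx2-1, Foxa1, Foxa2, Gata6, Foxp1, Foxp2 and Tfcp2l1 stand highest in distal epithelium, lower in shSox9 niche and lowest of the epithelium in niche libraries. Foxp1 and Foxp4 are the only factors above 10 CPM in 4T1 cells.

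Most other genes of lung epithelium, among them the AT2 genes that the factors are known to serve, fell in niche epithelium as well. Of 14 AT2 genes, 13 fell and none rose (median log2 fold change -3.82), among them Abca3, the lipid transporter of the lamellar body (-3.38), and Sftpa1, a surfactant protein (-4.69). Of 12 AT1 genes, 11 fell (median -3.42), including Ager (-4.15) and Rtkn2 (-4.08). All 8 ciliated genes and all 7 club genes that were tested fell, with Foxj1, the regulator of motile cilia, at -3.19 and Cyp2f2, a cytochrome of club cells, at -4.63. Basal genes went both ways: of 8 tested, 3 rose, 3 fell and 2 did not pass (median 0.61). Of 28 other lung epithelial transcription factors, 20 fell and 4 rose (median -1.84). Irx3 and Irx1, homeodomain factors of the lung, were at -3.40 and -3.71, and Etv4, a target of FGF signalling, was at 3.44. Etv4 averaged 100.7 CPM in 4T1 cells in vivo, 28.25 CPM in niche and 2.34 CPM in distal libraries. The part of 4T1 RNA in the rise of Etv4 was not tested. Mammary epithelial transcription factors, included because niche libraries could hold 4T1 RNA, rose for 7 of 9 and fell for 2, with Tfap2a at 4.69 and Elf5 at -4.10. Not all of them are 4T1 genes: 5 of the 9 were higher and 3 lower in 4T1 cells in vivo than in niche libraries. Tbx3, which rose, averaged 44.8 CPM in niche libraries, 0.91 CPM in 4T1 cells in vivo and 0 CPM in vitro.

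Atg9b, Exosc6, Hoxa10 and Parpbp were at least 20 CPM in every 4T1 library and at most 0.5 CPM in every distal one, by plain library totals. Their means in 4T1 cells in vivo and in vitro lay within 2-fold of each other. This panel of 4 genes gave a measure of 4T1 RNA. Niche libraries held 25.1%, 21.8% and 13.1% of the mean in 4T1 cells in vivo, and distal libraries 0.352% to 0.974%. The panel rule itself held the distal values low, so these are given with no test. If no other cell in the niche libraries expressed the panel, 80.0% of niche RNA came from other cells. That share corresponds to a shift of -0.32 on the log2 scale for a gene absent from 4T1 cells. Whether leukocytes or fibroblasts expressed the panel was not tested. Fibroblast and mural markers rose for 5 of 8 and fell for none. The part of 4T1 or fibroblast RNA in the falls of the lineage factors was not tested. Library totals and TPM moved the median over all genes from 0.02 to 0.30 and 0.48 on the log2 scale, so that fold changes close to 0, such as that of Foxp4, turn with the scaling.

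**Figure D2:**
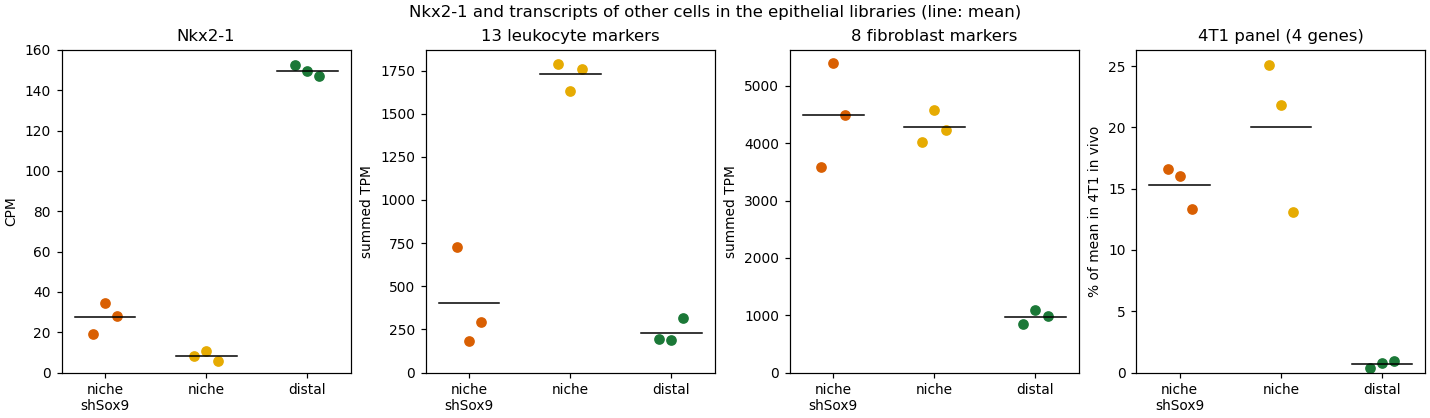
Nkx2-1 (CPM) beside the summed level of leukocyte and fibroblast markers (TPM) and the 4T1 gene panel (percent of its mean in 4T1 cells in vivo) in the 9 epithelial libraries, with points for libraries and lines for means. Leukocyte markers are highest in niche libraries, and fibroblast markers and the 4T1 panel are high in both niche groups.

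shSox9 niche epithelium was compared with niche epithelium to ask what differed under the shSox9 label. Of the 10 factors, 6 were higher in shSox9 niche libraries and none was lower, whereas 20.5% of all genes tested were called, 9.68% higher and 10.8% lower. The median log2 fold change was 1.10 over the 10 factors and 0.02 over all genes. The 6 were Tfcp2l1, Foxp2, Nkx2-1, Foxa2, Foxa1 and Gata6, all of which fell in niche against distal epithelium. Both comparisons use the niche libraries, so that a low niche value enters both.

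Nkx2-1 had 19.2, 34.5 and 28.2 CPM in shSox9 niche and 8.13, 10.6 and 5.95 CPM in niche libraries, a log2 fold change of 1.74 (SE 0.22, edgeR adjusted p = 0.000355). Tfcp2l1 had 16.2, 30.5 and 22.9 CPM in shSox9 niche and 3.54, 6.31 and 1.39 CPM in niche libraries, a log2 fold change of 2.62 (SE 0.39, edgeR adjusted p = 0.000989). Foxp2 had 6.93, 9.53 and 9.67 CPM in shSox9 niche and 3.03, 3.06 and 1.65 CPM in niche libraries, a log2 fold change of 1.76 (SE 0.23, edgeR adjusted p = 0.000449). In all 3 cases every shSox9 niche library lay above every niche library. The share of all genes tested whose CPM ranges separated in this way was not counted, here or in the other comparisons.

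Foxa2 had 2.63, 3.60 and 3.88 CPM in shSox9 niche and 1.38, 1.32 and 0.95 CPM in niche libraries, a log2 fold change of 1.48 (SE 0.23, edgeR adjusted p = 0.00129). Foxa1 had 4.10, 4.89 and 3.82 CPM in shSox9 niche and 1.75, 2.83 and 0.82 CPM in niche libraries, and its rise of 1.24 (SE 0.31, edgeR adjusted p = 0.0162) did not pass when niche replicate 1 was left out (adjusted p = 0.061), when shSox9 niche replicate 2 was left out (adjusted p = 0.0542) or when these 6 libraries were fitted alone (adjusted p = 0.0608). Gata6 had 8.58, 12.9 and 11.02 CPM in shSox9 niche and 4.59, 5.32 and 7.22 CPM in niche libraries, a log2 fold change of 0.95 (SE 0.22, edgeR adjusted p = 0.0107, and 0.0506 without niche replicate 1). The groups did not overlap for any of these genes.

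The other 4 factors did not pass. Cebpa had 21.2, 17.4 and 14.1 CPM in shSox9 niche and 20.2, 21.3 and 22.0 CPM in niche libraries, an overlap, with a log2 fold change of -0.24 (SE 0.16, edgeR adjusted p = 0.307). Foxp1 had 81.4, 73.5 and 80.6 CPM in shSox9 niche and 67.4, 67.6 and 67.2 CPM in niche libraries, with a log2 fold change of 0.25 (SE 0.09, edgeR adjusted p = 0.0732, and 0.0339 with DESeq2). Foxp4 had 26.6, 33.9 and 26.3 CPM in shSox9 niche and 24.8, 25.6 and 25.9 CPM in niche libraries, with a log2 fold change of 0.21 (SE 0.12, edgeR adjusted p = 0.245). Trp63 had 2.05, 7.50 and 5.45 CPM in shSox9 niche and 2.25, 2.54 and 3.42 CPM in niche libraries, with a log2 fold change of 0.89 (SE 0.42, edgeR adjusted p = 0.161, and 1.27 with adjusted p = 0.0141 without shSox9 niche replicate 1).

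AT2 genes rose with the factors, for 12 of 14, with 1 lower. Slc34a2, the phosphate transporter of AT2 cells, was at 2.11 and Lamp3, of the lamellar body, at 1.98, whereas Cd74, the invariant chain of class II histocompatibility molecules, was at -1.96. AT1 genes rose for 5 of 12 and fell for none, with Ager at 1.49. Of 7 club genes tested, 1 rose and 1 fell (median -0.85), of 8 ciliated genes none rose and 2 fell (median 0.21), and of 8 basal genes none rose and 3 fell (median -0.88), among them Ngfr at -1.17. Other lung transcription factors rose for 11 of 28 and fell for 2, with Irx1 at 1.54 and Foxj1 at -3.94. Beside this, 8 of 13 leukocyte markers fell and 1 rose. Their sum was 724.5, 183.4 and 295.6 TPM in shSox9 niche and 1789, 1633 and 1760 TPM in niche libraries. The 4T1 panel stood at 16.6%, 16.0% and 13.3% in shSox9 niche and at 25.1%, 21.8% and 13.1% in niche libraries, a difference of -4.70 percentage points (two-sided exact permutation p = 0.4, smallest possible 0.1). Of 6 epithelial identity markers, Cldn7, a tight junction protein, rose by 1.04 on the log2 scale (edgeR adjusted p = 0.00254), Epcam fell (edgeR adjusted p = 0.0213) and 4 did not pass, with a median of 0.01. These 6 summed to 3571 to 4180 TPM in 4T1 cells in vivo and to 672.1 to 771.9 TPM in distal libraries. They therefore do not tell lung epithelium from 4T1 RNA, and the part of 4T1 RNA in their levels was not tested. The part of leukocytes, or of other cells in the sort, in the higher lineage factors was not tested.

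**Figure D3:**
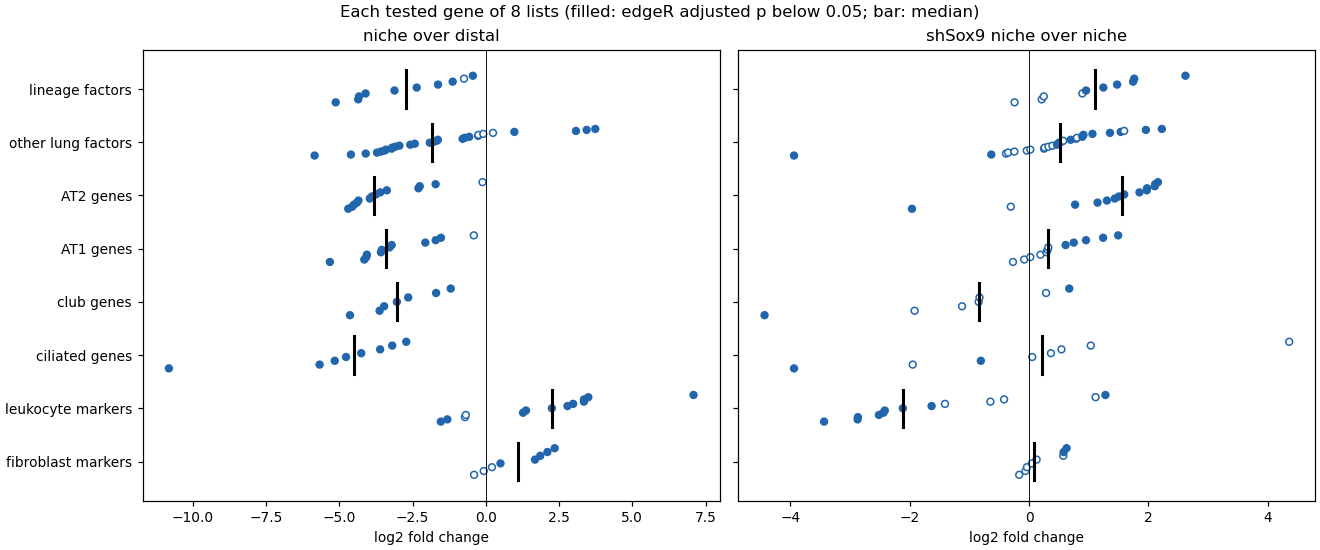
Log2 fold changes of every tested gene in 8 lists for niche over distal (left) and shSox9 niche over niche (right); each point is a gene, filled where the edgeR adjusted p is below 0.05, and the bar is the list's median. The lineage factors have medians of -2.74 and 1.10, and AT2 genes medians of -3.82 and 1.55.

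shSox9 niche epithelium remained different from distal epithelium, with 8 of the 10 factors lower and none higher, whereas 43.8% of all genes tested were called, 22.0% lower and 21.7% higher. The medians were -1.64 over the factors and -0.0047 over all genes. Foxa2 was at -2.88 (SE 0.21), Foxa1 at -2.86 (SE 0.29), Nkx2-1 at -2.58 (SE 0.21) and Tfcp2l1 at -2.50 (SE 0.35), all with an edgeR adjusted p below 0.05. Cebpa at -1.87, Gata6 at -1.40, Foxp2 at -1.35 and Foxp1 at -0.88 fell less. Foxp4 was at -0.23 (edgeR adjusted p = 0.142), or 0.05 with library totals and 0.34 on the log2(TPM + 1) scale, and Trp63 was at 0.15 (edgeR adjusted p = 0.796), or -0.26 without shSox9 niche replicate 2. For Nkx2-1, Foxa1, Foxa2, Gata6, Foxp1, Foxp2 and Tfcp2l1 the levels in shSox9 niche libraries lay between those of niche and distal libraries without overlap. Nkx2-1 was at 18.2% of its distal mean in shSox9 niche and at 5.50% in niche libraries. The difference of Foxp1 between the niche groups did not pass the test.

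**Figure D4:**
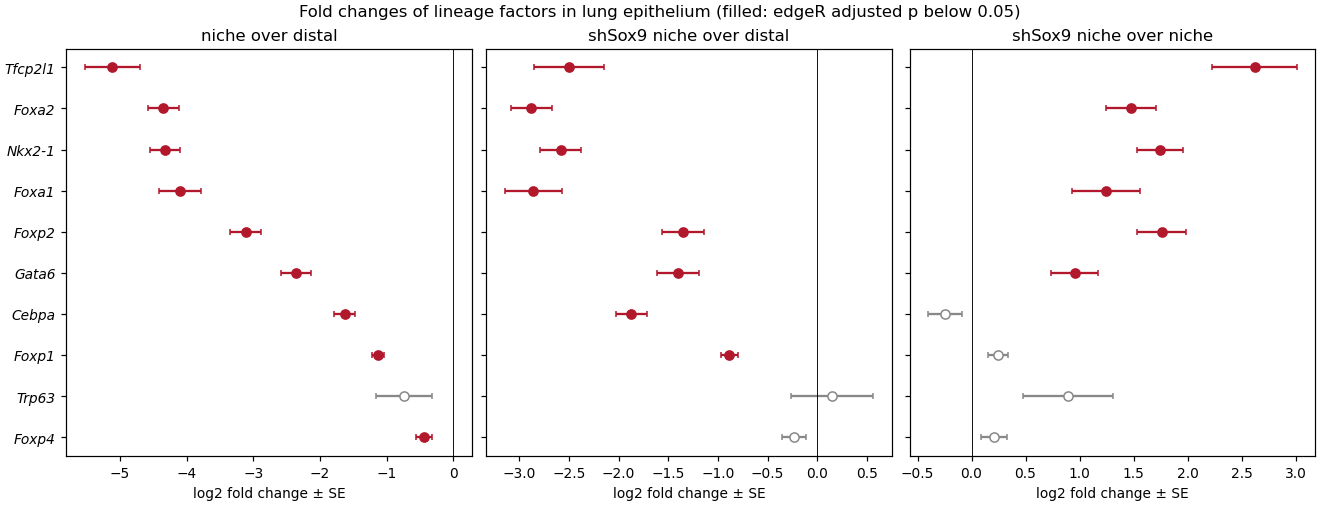
Log2 fold changes (points) with standard errors (bars) of the 10 factors in the 3 comparisons within lung epithelium; filled points have an edgeR adjusted p below 0.05. Nkx2-1, Foxa2, Foxa1 and Tfcp2l1 are far below 0 against distal epithelium and above 0 in shSox9 niche over niche.

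Among 4T1 cells the factors were mostly absent. In the libraries of cultured cells Nkx2-1, Foxa2, Cebpa, Gata6 and Foxp2 had 0 counts, and in vivo they had 3, 0, 31, 2 and 0 counts in all, so that only 4 of the 10 factors passed the filter on low counts. Foxp1 and Foxp4 led in both states, with means of 20.2 and 8.37 TPM in vivo and of 17.5 and 9.44 TPM in vitro. For these groups nothing says that replicates were separate cultures or animals, so p-values measure the spread between libraries, which may be technical.

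Of the 4 tested, 3 were lower in vivo and none higher, whereas 51.0% of 14022 genes were called, 24.0% lower and 27.0% higher. Tfcp2l1 had 0.86, 0.99 and 1.32 CPM in vivo and 2.70, 2.71 and 2.46 CPM in vitro, without overlap, a log2 fold change of -1.26 (SE 0.29, edgeR adjusted p = 0.00511). Foxa1 had 0.96, 1.08 and 1.52 CPM in vivo and 2.56, 2.24 and 1.93 CPM in vitro, a log2 fold change of -0.87 (SE 0.31, edgeR adjusted p = 0.0375). Foxp4 had 16.5, 17.1 and 15.3 CPM in vivo and 21.3, 20.2 and 20.9 CPM in vitro, a log2 fold change of -0.30 (SE 0.11, edgeR adjusted p = 0.0364). The call of Foxa1 was lost in 8 alternatives and that of Foxp4 in 7, whereas Foxp1 was at 0.17 (SE 0.09, edgeR adjusted p = 0.144). Leaving out in vitro replicate 1, in vitro replicate 2 or in vivo replicate 1 left 1 factor called.

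Cebpa was the exception among the silent factors. It had 2, 5 and 24 counts in vivo and 0 in each in vitro library, which makes it at least 12.3-fold higher in vivo against 3 counts over the group. The bound was 4.07-fold without in vivo replicate 3 and 7.34-fold without in vitro replicate 2. The highest value was in in vivo replicate 3, where leukocyte markers also summed highest, to 90.8 TPM against 24.7 and 32.5 TPM in the other in vivo libraries, and their part was not tested. Trp63 had 15 counts in vivo and 2 in vitro, an in vitro to in vivo ratio of 0.112 (exact 95% counting interval 0.0125 to 0.483). Both in vitro counts of Trp63 were in replicate 1, without which it was at least 4.23-fold higher in vivo, and the ratio was 0.188 without in vitro replicate 2.

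Against niche epithelium, 9 of 10 factors were lower in 4T1 cells in vivo, whereas 64.8% of 18242 genes tested were called, 36.0% lower and 28.9% higher. Nkx2-1 had 3 counts in 4T1 cells in vivo and 497 in niche libraries, a ratio of 174 (exact 95% counting interval 59.3 to 848 times lower). Gata6 had 2 counts in 4T1 cells in vivo and 327 in niche libraries, a ratio of 172 (47.2 to 1427). Foxa2 and Foxp2 had 0 counts in 4T1 cells in vivo and were at least 25.6-fold and at least 55.1-fold lower, against 3 counts over the group. Leaving out in vivo replicate 1 gave ratios of 116 for Nkx2-1 and 114 for Gata6 and bounds of 17.0-fold for Foxa2 and 36.5-fold for Foxp2. Without in vivo replicate 2 these bounds were 16.8-fold and 36.1-fold, and without in vivo replicate 3 the ratio of Nkx2-1 was 356. Foxa1, the exception, was at -0.59 (SE 0.33, edgeR adjusted p = 0.129), and without niche replicate 3 it was at -0.92 (adjusted p = 0.00933). Foxp1 was at -0.31 (SE 0.08, edgeR adjusted p = 0.00474), or -0.18 (adjusted p = 0.0754) with library totals. The other 4 were lower too, with Cebpa at -5.34, Trp63 at -3.43, Foxp4 at -0.61, and Tfcp2l1 at -1.82 (edgeR adjusted p = 0.0019, and 0.0737 on the log2(TPM + 1) scale).

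Against distal epithelium, all 10 factors were lower in cultured 4T1 cells, whereas 81.5% of all genes tested were called, 51.0% lower and 30.5% higher, with a median log2 fold change of -0.56. With 0 counts in cultured 4T1 cells, Nkx2-1 was at least 3669-fold, Cebpa at least 1451-fold, Gata6 at least 642-fold, Foxa2 at least 556-fold and Foxp2 at least 499-fold lower, against 3 counts over the group. Trp63 had 2 counts in cultured 4T1 cells and 191 in distal libraries, a ratio of 151 (exact 95% counting interval 41.1 to 1252). Without in vitro replicate 2, the deepest library, the bounds were 2195-fold for Nkx2-1, 868-fold for Cebpa, 384-fold for Gata6, 333-fold for Foxa2 and 299-fold for Foxp2, and the ratio of Trp63 was 90.1. Without in vitro replicate 1, Trp63 was at least 71.5-fold lower. Tfcp2l1 was at -5.74, Foxa1 at -3.89 and Foxp1 at -1.67, and Foxp4 was at -0.81 (edgeR adjusted p = 3.93e-06) or -0.23 (adjusted p = 0.202) on the log2(TPM + 1) scale. All groups of libraries were separate for these genes.

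The order of levels over the 5 groups differed by gene. Nkx2-1, Foxa2, Gata6 and Foxp2 ran from distal over shSox9 niche and niche to 4T1 cells, and neighbouring ranges of libraries did not overlap among the epithelial groups. Foxp1 ran in the same order, and all 5 of its groups were separate. For Foxa1, in vitro 4T1 cells, niche epithelium and in vivo 4T1 cells overlapped in turn at the low end, and for Tfcp2l1, niche epithelium overlapped in vitro 4T1 cells. Cebpa was ordered distal, niche and shSox9 niche, with the niche groups overlapping. For Trp63 the 3 epithelial groups all overlapped.

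By the closeness of their log2(CPM + 1) profiles over the 15 libraries, the 3 protein-coding genes nearest to Nkx2-1 were Clic3, Lgi3 and Acot1 (Pearson r 0.999 each, of 13399 genes), and those nearest to Foxp2 were Slco4c1, Elf5 and Mlc1 (0.997 each). Foxa2 was closest to Bex4 (0.998), Gata6 to Plxna2 (0.997), Cebpa to Grk3 (0.996) and Foxa1 to Thsd4 (0.993). These profiles share the libraries and are led by the contrast of epithelium with 4T1 cells, so the values describe likeness only.

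A further difference was seen in the length of Foxp1 transcripts, a measure chosen after values were seen. RSEM's mean transcript length of a gene, weighted by isoform, was 3369, 3989 and 3846 bases in shSox9 niche, 3857, 3559 and 4140 bases in niche and 2841, 2990 and 3112 bases in distal libraries, and it averaged 4267 ± 316 bases in 4T1 cells in vivo and 4223 ± 80.6 bases in vitro. Niche libraries exceeded distal ones by 870.7 bases and shSox9 niche ones by 753.3 bases, without overlap (two-sided exact permutation p = 0.1 for each, the lowest possible). Of 8815 genes with at least 2 transcripts and 100 counts in every epithelial library, 10.2% were longer without overlap in niche and 8.52% in shSox9 niche than in distal libraries. Foxp2 and Trp63 differed the other way, also without overlap. Foxp2 had 1764, 2280 and 1277 bases in niche and 2832, 3084 and 2810 bases in distal libraries. Trp63 had 2795, 2710 and 2956 bases in niche and 3254, 3412 and 3651 bases in distal libraries. Both genes lie below the 100 counts required above. Niche libraries held 66, 65 and 26 counts of Foxp2 and 49, 54 and 54 counts of Trp63, so their lengths rest on few reads. The share of all genes that were shorter was not counted. The files list 31 Foxp1 transcripts, of 336 to 7177 bases. Which transcripts differed is not resolved by the gene tables.

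**Figure D5:**
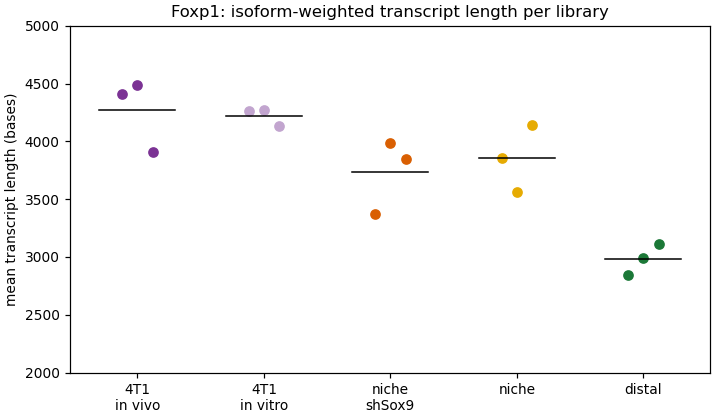
Isoform-weighted mean transcript length of Foxp1 in each library, in bases, with points for libraries and lines for means; the axis starts above 0. The 3 distal libraries are the shortest, at 2841 to 3112 bases, and every other library is longer.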

How the data were processed

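Gene tables for 15 libraries were made by the authors with RSEM against GRCm38, and DESeq2 is also named, per the submitters' processing notes. No source used here names the aligner, annotation release or strand setting. Expected counts as deposited, in which reads shared by genes are split, were rounded to whole numbers. TPM as deposited corrects for transcript length in the authors' RSEM run, and served to compare genes and in 1 alternative. The deposited transcript length values were used for Foxp1, Foxp2 and Trp63, and FPKM was not used.

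The test was edgeR's (version 4.0.16, quasi-likelihood, TMM scaling, filterByExpr, Benjamini-Hochberg over all genes tested, threshold 0.05) in R 4.3.3. The 6 4T1 libraries and the 9 epithelial libraries were fitted apart, and 4T1 cells were set against epithelium in a fit of all 15. On simulated counts the fit was checked for recovery of known changes. Of 54838 identifiers, 54809 were found in GENCODE M21. A group with 0 counts gets a bound against 3 counts, and intervals cover counting error only. Every pair of replicates differed by more than counting noise. Alternatives were other scalings, DESeq2 1.42.0, no filter, log2(TPM + 1) with limma 3.58.1, other sets of libraries, a replicate block and leaving out each library (for bounds and count ratios, chosen after seeing the data). All 10 factors are named in every comparison, and from other lists only genes among the 6 with the lowest adjusted p. Sox9 is named for the label, and cell type markers that check the labels, such as Sftpc, were named with their values known. Tbx3 was named for its level in 4T1 cells, also with that level known. The factors and lists were chosen with earlier results of these data known.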

Additional observations from a re-analysis of the deposited data

How the results depend on the processing

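Of 742 alternative values for single factors, 707 kept their direction and their side of the threshold. Those that turned round were Foxp4 in niche over distal (0.128 on the log2(TPM + 1) scale) and in shSox9 niche over distal (0.0467 with library totals, 0.342 on the log2(TPM + 1) scale), and Trp63 in niche over distal (0.0811 on the log2(TPM + 1) scale) and in shSox9 niche over distal (-0.26 to 0.53 as single libraries were left out); the cause was not tested. In 4T1 cells in vivo over in vitro 3 of the 4 factors tested were called, and 1 to 3 of the 4 as single libraries were left out. With all 15 libraries in the fit, 10 factors were tested and 5 were called, beside 7573 of 18242 genes. Leaving out single libraries gave 4 to 7 factors in shSox9 niche over niche, 8 to 9 in shSox9 niche over distal, 9 to 10 in 4T1 cells in vivo over niche, 9 in niche over distal and 10 in 4T1 cells in vitro over distal. Over all genes it gave 2238 to 4224 called in shSox9 niche over niche, against 3616 in the main fit. In 4T1 cells in vivo over in vitro it gave 6034 to 7378 genes, against 7151.

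Same-lettered replicates of shSox9 niche and niche deviated together only weakly (correlations of 0.098, 0.0604 and 0.0708, each the highest for its library within these 2 groups). Replicates of unlike number reached 0.129, between shSox9 niche replicate 1 and distal replicate 3. The correlations therefore do not show pairing, and the design does not state it. With the replicate block 3638 genes were called in shSox9 niche over niche, against 3616 without it, and 6 factors either way, also with the block in these 6 libraries alone, an alternative chosen after seeing the data. In 4T1 cells in vivo over in vitro the block left 2 factors, without Foxa1 (adjusted p = 0.0617). Depth limits the factors near 0 counts in 4T1 cells, where 3 counts are 0.0986 to 0.166 CPM in one library by plain library totals.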
